A study of Homo sapiens with 16 samples.

Results

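The data described here are the counts of small nucleolar RNA (snoRNA) and small Cajal body RNA (scaRNA) genes in 2 human multiple myeloma cell lines. The members are the genes whose symbol begins with SNORA, SNORD or SCARNA and whose count, summed over all 16 libraries, was at least 100. By this rule 198 of the 350 genes with such a symbol, out of 23354 genes in all, were taken: 69 of 99 SNORA, 110 of 228 SNORD and 19 of 23 SCARNA genes. The members were chosen by their summed count, so the height of their levels is a description and not a finding. SNORA29 (90 counts), SNORD116-24 (92) and SNORD91A (95) lay just under the minimum, and SCARNA23, SNORD103C (102) and SNORD105B (103) lay just over it. Of the 152 genes under the minimum, 90 were listed at 0 in every library.

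MM1S and MM1R are human myeloma lines, the first sensitive and the second resistant to dexamethasone (Dex), a synthetic glucocorticoid. Each line was treated for 48 h with Veh (vehicle only), with 0.1 μM of TAK-981, with 1 μM of Dex, or with both agents at those doses (combo), and total RNA depleted of ribosomal RNA was sequenced in 2 libraries per group over 8 groups. TAK-981 is a small-molecule inhibitor of SUMO E1, the enzyme that starts the attachment of the small modifier SUMO to proteins. No group carries a genetic change made for the study, each group is 1 line grown in culture, and nothing in the labels says that the 2 libraries of a group came from separate cultures, so that p-values measure only the spread between these samples, which may be technical.

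Box C/D snoRNAs (SNORD) pair with RNA and guide 2′-O-methylation of their target by fibrillarin, and box H/ACA snoRNAs (SNORA) guide the conversion of uridine to pseudouridine by dyskerin. Their targets are mostly ribosomal RNA, modified in the nucleolus while ribosomes are made. ScaRNAs (SCARNA) are built of the same boxes, are held in Cajal bodies, and guide the same changes in the small nuclear RNAs of the spliceosome. Most human snoRNAs and scaRNAs are not transcribed on their own: they are cut out of the introns of a host gene, which may be protein-coding, often for a ribosomal protein, or a noncoding snoRNA host gene (SNHG). The boxes that bind the shared proteins can be read in the sequences, and those of some members named in the results below are given here.

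The sequences are those of GENCODE release 29 on GRCh38, 5′ to 3′, and the coordinates beside them are of that build. In the SNORD sequences the capitals mark the C box (TGATGA, searched in the first 20 bases) and the D box (CTGA, in the last 20 bases). SNORD28 and SNORD30 are shown because both were lower with TAK-981 in both lines. SNORD17 is the SNORD member with the highest count. The 3 copies of SNORD116 shown were counted over about snoRNA length and had few counts. The SNORD116 genes with the smallest p, described below, were counted over much longer stretches and are not shown.
SNORD28 (chr11:62854621-62854695, minus strand): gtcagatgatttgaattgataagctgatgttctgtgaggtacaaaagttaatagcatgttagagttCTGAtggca
SNORD30 (chr11:62853663-62853732, minus strand): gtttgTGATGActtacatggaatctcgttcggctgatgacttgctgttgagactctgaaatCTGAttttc
SNORD17 (chr20:17962710-17962946, minus strand): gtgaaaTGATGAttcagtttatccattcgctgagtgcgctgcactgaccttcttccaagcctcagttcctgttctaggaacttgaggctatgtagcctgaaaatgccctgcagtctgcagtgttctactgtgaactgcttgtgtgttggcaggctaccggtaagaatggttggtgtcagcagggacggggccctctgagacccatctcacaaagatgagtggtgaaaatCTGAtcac
SNORD116-1 (chr15:25051477-25051571, plus strand): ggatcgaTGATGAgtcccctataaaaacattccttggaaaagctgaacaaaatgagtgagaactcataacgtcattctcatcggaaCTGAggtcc
SNORD116-15 (chr15:25081287-25081378, plus strand): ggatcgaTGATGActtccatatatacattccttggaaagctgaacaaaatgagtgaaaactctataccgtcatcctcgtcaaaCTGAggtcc
SNORD116-23 (chr15:25091786-25091877, plus strand): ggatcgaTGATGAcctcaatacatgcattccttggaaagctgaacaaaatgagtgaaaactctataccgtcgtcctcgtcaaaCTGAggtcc

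In the SNORA sequences the capitals mark ACA within the last 8 bases. SNORA54 and SNORA3B are shown because their ratio to their host gene changed with TAK-981, and SNORA3A is shown as the other copy of SNORA3.
SNORA54 (chr11:2963771-2963893, minus strand): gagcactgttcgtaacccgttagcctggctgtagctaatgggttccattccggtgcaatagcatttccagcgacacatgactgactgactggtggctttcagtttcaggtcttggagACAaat
SNORA3A (chr11:8684227-8684356, plus strand): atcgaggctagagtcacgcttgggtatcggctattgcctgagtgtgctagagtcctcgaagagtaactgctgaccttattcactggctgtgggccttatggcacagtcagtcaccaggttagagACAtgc
SNORA3B (chr11:8685439-8685569, plus strand): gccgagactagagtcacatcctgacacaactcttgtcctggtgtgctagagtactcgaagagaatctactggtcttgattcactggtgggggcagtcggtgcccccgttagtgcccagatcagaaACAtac

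In the SCARNA sequences the capitals mark every TGAG, the letters of the Cajal body box, and the last ACA within the last 8 bases. These are matches of letters, and which of them act as boxes was not tested. SCARNA22 holds another ACA directly before the marked one, left in small letters. SCARNA12 also holds a C box and a D box by the search used for SNORD, which are not marked. Its first TGAG and its ACA overlap them. SCARNA12 and SCARNA22 are shown because they rose with TAK-981 in MM1S while their hosts fell.
SCARNA12 (chr12:6967337-6967606, minus strand): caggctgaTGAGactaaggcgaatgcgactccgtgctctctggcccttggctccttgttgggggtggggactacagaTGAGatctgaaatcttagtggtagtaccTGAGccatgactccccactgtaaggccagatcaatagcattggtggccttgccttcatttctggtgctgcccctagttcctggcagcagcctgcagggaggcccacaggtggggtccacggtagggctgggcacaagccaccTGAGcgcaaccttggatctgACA
SCARNA22 (chr4:1974636-1974760, plus strand): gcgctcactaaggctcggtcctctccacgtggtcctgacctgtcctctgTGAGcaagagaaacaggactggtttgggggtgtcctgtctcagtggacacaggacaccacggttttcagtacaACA

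A sequence of that name was found for 184 of the 198 members. Box shares were taken without the 12 members whose counted gene was over 1.5 times as long as this sequence. A C box and a D box were both found in 60 of 93 SNORD members (64.5%), in 5 of 15 SCARNA members (33.3%) and in 0 of 64 SNORA members. Only the exact letters were searched, so a member without both matches need not lack the boxes. SNORD28, for one, had the D box match without the C box match. ACA near the 3′ end was found in 61 of 64 SNORA (95.3%), in 10 of 15 SCARNA (66.7%) and in 6 of 93 SNORD members (6.5%). TGAG was searched over the whole sequence and did not mark the SCARNA class. It was found in 73.3% of SCARNA, 74.2% of SNORD and 43.8% of SNORA members. The copies of SNORD116 compared (SNORD116-1, SNORD116-15, SNORD116-18, SNORD116-23 and SNORD116-28) were 67.7% to 97.8% identical over 10 pairs, SNORA3A and SNORA3B were 70.1% identical, and SNORA71A to SNORA71D were 83.1% to 90.3% identical. Reads of such copies may have been split between them or dropped, so the values of a single copy are uncertain.

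Library depth ran from 15707587 to 24796539 counts, and the members took 0.1423% to 0.3551% of them. All 8 plasma cell markers checked were above a mean of 1 CPM (counts scaled to one common library size, after TMM normalization) and summed to 3370 to 6135 CPM in each library, while the T cell markers summed to at most 5.5 CPM, the monocyte markers to 0.543, the stromal markers to 1.99 and the erythroid markers to 12.4. NR3C1, the glucocorticoid receptor gene, lay between 239 and 357 CPM in the 8 MM1S libraries, but the 8 MM1R libraries held only 16.7 to 20.5 CPM of it. In MM1S the 2 libraries of each group differed beyond counting noise, with a chi-square over the members of 3.22 to 11.3 per degree of freedom. It was highest in the Dex (11.3) and TAK-981 (7.93) pairs. The MM1R pairs gave 1.12 to 2.435, and those with combo (1.12) and Veh (1.17) were close to counting noise. In bulk RNA, fewer cells that make an RNA and less of that RNA in each cell cannot be told apart.

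The SCARNA class held 59.92% of all member counts in 19 genes, the SNORD class 21.78% and the SNORA class 18.3%. Per kilobase of gene length, the median level was 28.6 CPM for SCARNA, 16.1 for SNORD and 15.2 for SNORA members. The median counted lengths were 186, 75.5 and 134 bp. Whether RNAs of different length were captured equally in these libraries was not tested. These levels therefore do not rank the classes by their amount in the cells. Single genes led each class: SCARNA10 took 32.49% of the SCARNA counts and SNORD17 took 25.99% of the SNORD counts. SCARNA10 was also highest per kilobase with 1283 CPM, followed by SCARNA2 (814), SCARNA7 (587), SNORD17 (515) and SCARNA12 (511), and the highest SNORA member was SNORA48 (375).

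The classes did not move alike over the groups. In MM1S the summed SCARNA level was 1089 and 1260 CPM with Veh, 1757 and 2077 with TAK-981, 1346 and 1866 with Dex, and 2164 and 1951 with combo. The MM1R sums were 809 and 814 CPM with Veh, and 974 and 1020 with TAK-981. Every MM1S library thus lay above all MM1R libraries of its own treatment, and in each line both TAK-981 libraries lay above both Veh libraries. Against Veh, the mean summed level with TAK-981 in MM1S was 1.63 times as high for SCARNA, 1.496 times for SNORD and 1.26 times for SNORA members. In MM1R the same 3 values were 1.23, 1.27 and 1.11. With Dex alone MM1S gave 1.37, 1.095 and 1.15, and MM1R gave 0.971, 1.03 and 1.04. These sums rest on the few highest genes, which for SNORD are SNORD17 and the long SNORD116 genes described below. The median SNORD member did not rise with TAK-981, with a log2 fold change of −0.0023 in MM1S and −0.06 in MM1R. Tests were made gene by gene.

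**Figure D1:**
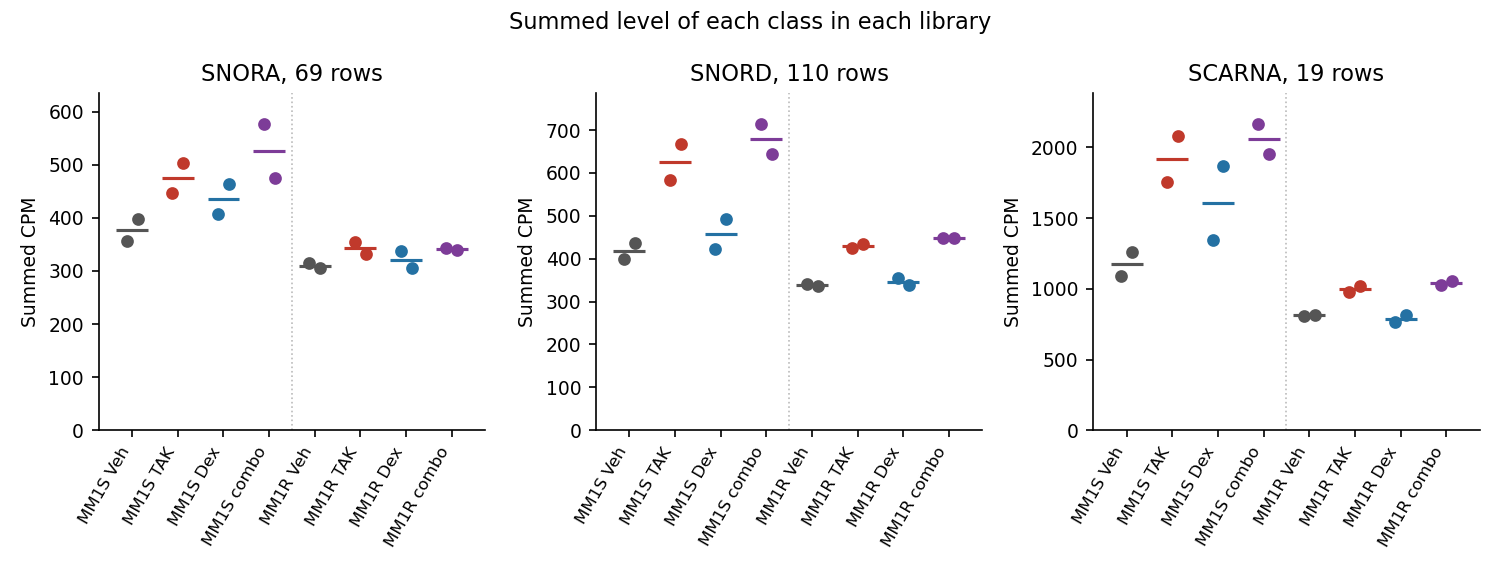
Summed level of the SNORA (69 genes), SNORD (110) and SCARNA (19) members in each of the 16 libraries, in CPM on linear axes that start at 0, with libraries grouped by line and treatment. Points are libraries and bars the mean of 2; the SCARNA sum with TAK-981 in MM1S (1757 and 2077 CPM) lies above that with Veh (1089 and 1260).

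Of the 198 members, 192 passed the filter on low counts and were tested, and SCARNA18, SNORA72, SNORD103C, SNORD121A, SNORD4B and SNORD82 were not. A member is called higher or lower below at an adjusted p under 0.05 in edgeR's quasi-likelihood test (Benjamini-Hochberg over 14215 genes), and n is 2 libraries in each group throughout. The standard error (SE) of a log2 fold change had a median of 0.287 over the members and 0.104 over all genes in the TAK-981 comparison of MM1S, so a member needed a larger difference than most genes to be called. For each gene, all 8 groups share 1 estimate of the spread. Yet the 2 libraries of a group differed less in MM1R than in MM1S, above all less than in its TAK-981 and Dex pairs. A count of calls in MM1S and one in MM1R are therefore no like-for-like comparison of the lines.

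With TAK-981 in MM1S, 38 members were higher than with Veh and 6 lower, that is 19.8% and 3.12% of those tested. Of all genes tested, 25.2% were higher and 23.7% lower, so the share of members called higher was no larger than that of genes in general, and it was the share called lower that was small. SCARNA members were called most often, with 11 of 18 higher and 0 lower, against 13 higher and 0 lower of 68 SNORA and 14 higher and 6 lower of 106 SNORD members. The median log2 fold change was 0.66 for SCARNA, 0.35 for SNORA and −0.0023 for SNORD members, and 0.037 over all genes. These medians are descriptions and were not tested against each other. The classes also differed in precision, with a median SE of 0.176 for SCARNA, 0.254 for SNORA and 0.303 for SNORD members, so that a SCARNA member could be called at a smaller difference. The count of 44 members called was 18 without MM1S Veh replicate 1 and 29 without MM1S TAK-981 replicate 2.

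With TAK-981 in MM1R, 24 members were higher and 6 lower. The background was again larger, with 25.8% of all genes higher and 27.6% lower, against 12.5% and 3.12% of the members. By class, 5 of 18 SCARNA members were higher and 0 lower, 9 of 68 SNORA members were higher and 1 lower, and 10 of 106 SNORD members were higher and 5 lower. The medians were 0.28, 0.12 and −0.06, and 0.0043 over all genes. The count of 30 members called was 16 to 18 when any 1 of the 4 libraries compared was left out. Of the 38 members higher in MM1S, 14 were also higher in MM1R, which is 36.8% of the first list and 58.3% of the second. They were SCARNA9, SCARNA10, SCARNA16, SNORA3B, SNORA21, SNORA26, SNORA54, SNORD94 and the SNORD116 copies 1, 2, 3, 13, 20 and 26. SNORD28 and SNORD30 were the 2 members lower in both lines, 33.3% of each list of 6, and 0 members were called in opposite directions.

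The difference between the lines in the TAK-981 effect was tested by an interaction term. It was called for 0 of 192 members by edgeR, with 19 at an unadjusted p under 0.05, and for 0 by DESeq2. The edgeR count was 10 without MM1S TAK-981 replicate 1, 1 without MM1S TAK-981 replicate 2, and 3 without either MM1S Dex library, and it was 13 with no filter on low counts and 4 with the replicate number as a block within each line. Over all genes, 3.19% were called with a larger value in MM1R and 0.978% with a smaller one. The median difference (MM1R minus MM1S) was −0.39 log2 for SCARNA, −0.16 for SNORA and −0.15 for SNORD members.

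**Figure D2:**
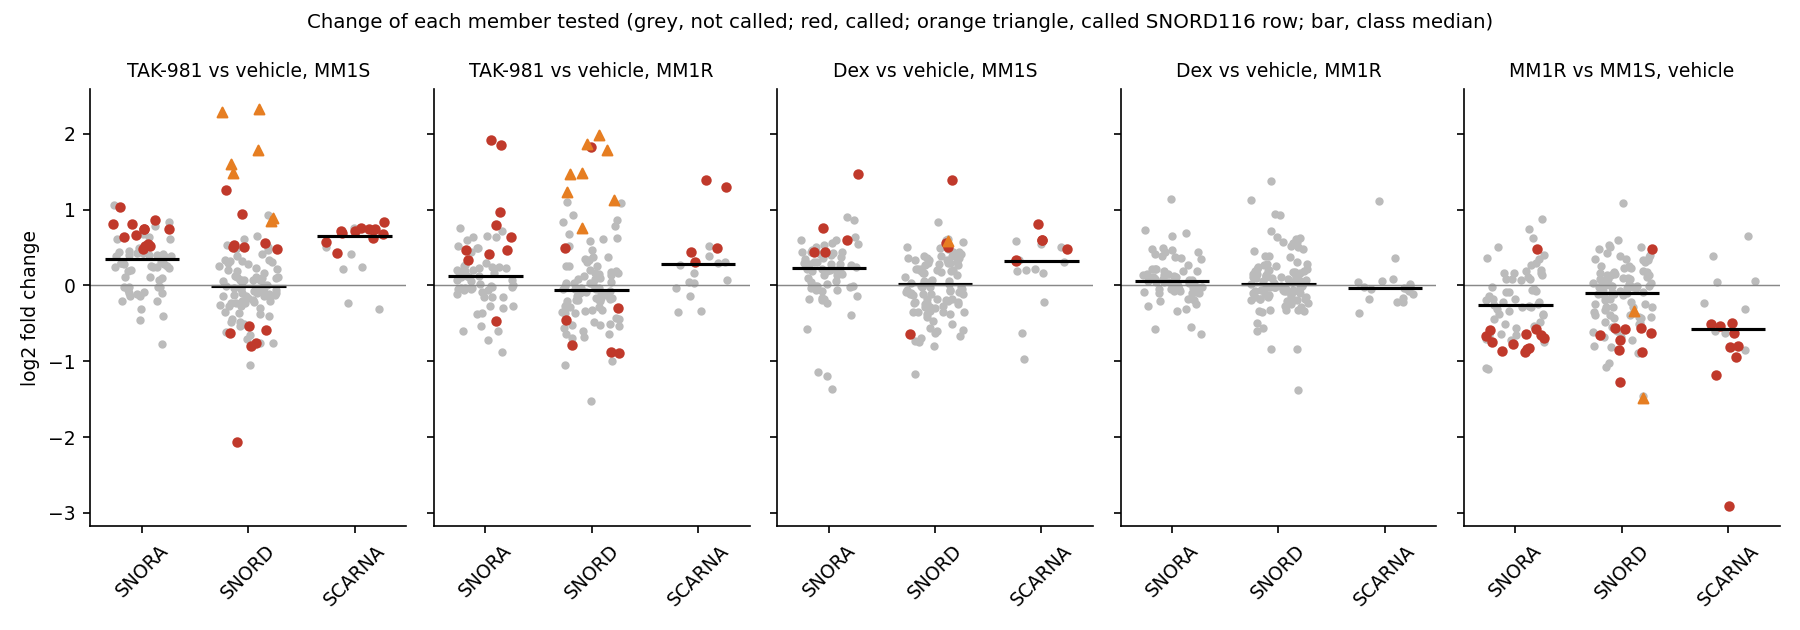
Log2 fold change of each of the 192 tested members in 5 comparisons, split into SNORA, SNORD and SCARNA, with Dex in MM1R among them. Red points and orange triangles (SNORD116) passed an edgeR adjusted p of 0.05, grey points did not, and black bars are class medians; the SCARNA median is 0.66 with TAK-981 in MM1S and −0.57 for MM1R against MM1S, and no point is coloured for Dex in MM1R.

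Among the SCARNA members, the 4 highest per kilobase were all higher with TAK-981 in MM1S. SCARNA10, a guide of the U5 small nuclear RNA, was at 358 and 440 CPM with Veh and at 654 and 663 CPM with TAK-981 in MM1S (log2 fold change 0.72, SE 0.112, edgeR adjusted p = 7.024e-05). In MM1R it was at 263 and 255 CPM with Veh and at 310 and 328 CPM with TAK-981 (0.30, SE 0.113, edgeR adjusted p = 0.03415). Both TAK-981 libraries lay above both Veh libraries in each line, but the call in MM1R was lost on leaving out any of 6 of the 16 libraries, with an adjusted p of up to 0.155, and also with the replicate number as a block. SCARNA2, a guide of the U2 small nuclear RNA, was at 282 and 317 CPM with Veh and at 440 and 567 CPM with TAK-981 in MM1S (0.75, SE 0.163, edgeR adjusted p = 0.002096, and 0.07205 without MM1S TAK-981 replicate 2). Its MM1R levels were 199 and 213 CPM against 241 and 258 CPM (0.27, edgeR adjusted p = 0.1795). SCARNA7 was at 155 and 177 CPM with Veh and at 246 and 315 CPM with TAK-981 in MM1S (0.76, SE 0.142, edgeR adjusted p = 0.000487), and SCARNA12 at 119 and 128 against 162 and 206 CPM (0.58, SE 0.128, edgeR adjusted p = 0.001714). In MM1R the groups of these 2 genes did not overlap either, but with values of 0.31 and 0.17 they were not called.

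SCARNA9 was the member with the smallest p outside the SNORD116 copies in both lines. It was at 82.3 and 88.1 CPM with Veh and at 126 and 138 CPM with TAK-981 in MM1S (0.63, SE 0.0739, edgeR adjusted p = 1.138e-06). In MM1R it was at 62.4 and 57.8 CPM with Veh and at 86.8 and 82.1 CPM with TAK-981 (0.49, SE 0.0756, edgeR adjusted p = 2.8e-05). Both calls held whichever library was left out. SCARNA5, at 29.5 and 33.4 CPM with Veh and 43.5 and 59.9 CPM with TAK-981, also rose in MM1S (0.72, SE 0.153, edgeR adjusted p = 0.001108) and was not called in MM1R (0.29, edgeR adjusted p = 0.1667).

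Of the SNORA members named for their level, 2 of 4 rose with TAK-981 in MM1S. SNORA54 was at 14.2 and 16.6 CPM with Veh and at 25.5 and 25.9 CPM with TAK-981 in MM1S (0.74, SE 0.132, edgeR adjusted p = 0.0001391). Its levels in MM1R were 10.998 and 9.52 CPM against 15.4 and 13.2 CPM (0.47, SE 0.144, edgeR adjusted p = 0.01046), a call lost without MM1R Veh replicate 2 or MM1R TAK-981 replicate 1 (adjusted p of up to 0.1213 in edgeR). SNORA48 was at 45.5 and 56.8 CPM with Veh and at 64.6 and 78.4 CPM with TAK-981 in MM1S (0.49, SE 0.164, edgeR adjusted p = 0.02432). That call too was lost without MM1S Veh replicate 1 or either MM1S TAK-981 library (edgeR adjusted p of up to 0.2851). SNORA63 (0.42, edgeR adjusted p = 0.0818) and SNORA24 (−0.08, edgeR adjusted p = 0.7204) were not called. SNORA3B, one of 2 SNORA3 copies in RPL27A, was at 2.91 and 2.87 CPM with Veh and at 4.51 and 5.20 CPM with TAK-981 in MM1S (0.75, SE 0.149, edgeR adjusted p = 0.0004048). Its levels in MM1R were 3.27 and 3.09 CPM against 5.48 and 5.57 CPM (0.80, SE 0.139, edgeR adjusted p = 0.0001024), and both calls held whichever library was left out. Its neighbour SNORA3A, named after its values were seen, rose in MM1S (0.86, edgeR adjusted p = 0.0006299) and had a value of 0.13 in MM1R (edgeR adjusted p = 0.5982). In MM1R the SNORA member called lower was SNORA62, at 3.64 and 3.504 CPM with Veh and 2.79 and 2.36 CPM with TAK-981 (−0.47, edgeR adjusted p = 0.04363), a call lost on leaving out any of the 4 libraries compared, with an adjusted p of up to 0.2524.

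The SNORD class moved in both directions. Of the 10 tested SNORD116 copies, 7 were higher in MM1S and 8 in MM1R, with median log2 fold changes of 1.21 and 1.35. Without them, 7 SNORD members were higher and 6 lower of 96 in MM1S (median −0.04), and 2 higher and 5 lower in MM1R (median −0.09). SNORD116 is a repeated box C/D snoRNA of the imprinted Prader-Willi region on chromosome 15, made from a long noncoding transcript, and has no known ribosomal RNA target. In the count table these genes lie on the plus strand of hg19, from SNORD116-1 (chr15:25296623-25296719) to SNORD116-28 (chr15:25349788-25349880), and 7 of them lie within IPW (chr15:25304604-25420017), a noncoding RNA of the same region.

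The 4 SNORD116 genes with the most counts are much longer in the count table than the mature snoRNA. SNORD116-2 was counted over 2954 bp against 95 in GENCODE, SNORD116-26 over 2169 against 96, SNORD116-20 over 1235 against 92, and SNORD116-13 over 1177 against 92, so that other RNA of the region can have been counted in them. SNORD116-2 was at 23.9 and 25.2 CPM with Veh and at 76.2 and 93.2 CPM with TAK-981 in MM1S (1.79, SE 0.0853, edgeR adjusted p = 8.456e-12). For MM1R the levels were 22.8 and 22.4 CPM with Veh and 60.5 and 66.0 CPM with TAK-981 (1.49, SE 0.0854, edgeR adjusted p = 1.314e-10). SNORD116-20 was at 36.5 and 37.7 CPM against 99.3 and 109 CPM in MM1S (1.49, SE 0.0782), and at 28.3 and 30.5 CPM against 63.1 and 64.8 CPM in MM1R (1.12, SE 0.0798). SNORD116-26 rose by 1.60 log2 in MM1S and 1.24 in MM1R, and SNORD116-13 (named after its values were seen) by 0.89 and 0.75. IPW rose as well, from 78.8 and 79.1 CPM to 170 and 174 CPM in MM1S (1.125, SE 0.0552, edgeR adjusted p = 1.185e-11), and from 88.6 and 89.8 CPM to 170 and 166 CPM in MM1R (0.91, SE 0.0545, edgeR adjusted p = 2.301e-10). The calls of these 5 genes held whichever library was left out.

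The other SNORD116 copies had few counts, and all but SNORD116-3, which was counted over 192 bp against 95 in GENCODE, were of about snoRNA length. SNORD116-1 had 2 and 2 counts with Veh and 14 and 6 with TAK-981 in MM1S (2.33, SE 0.718, edgeR adjusted p = 0.01186), and 4 and 3 counts against 13 and 7 in MM1R (1.79, SE 0.629, edgeR adjusted p = 0.02288). SNORD116-3 had 1 and 4 counts against 11 and 13 in MM1S, and 4 and 3 against 5 and 18 in MM1R, so that its groups in MM1R differed mainly by 1 library. SNORD116-15 and SNORD116-23 were called in MM1R and SNORD116-18 in MM1S, and SNORD116-28 in neither. Each TAK-981 call of the first 5 of these copies was lost on leaving out 1 to 12 of the libraries in turn, with edgeR adjusted p of up to 0.4195, so the calls of these copies are less certain than those of the 4 long genes.

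SNORD28 and SNORD30, guides of the small subunit ribosomal RNA that lie in SNHG1, were lower with TAK-981. SNORD28 was at 5.54 and 6.15 CPM with Veh and at 4.05 and 2.68 CPM with TAK-981 in MM1S (−0.80, SE 0.200, edgeR adjusted p = 0.002842). In MM1R it was at 5.17 and 6.27 CPM against 4.83 and 3.55 CPM (−0.455, SE 0.188, edgeR adjusted p = 0.0491), a call lost on leaving out any of 8 libraries, with an adjusted p of up to 0.4051. SNORD30 was at 3.90 and 3.33 CPM with Veh and at 2.28 and 2.42 CPM with TAK-981 in MM1S (−0.62, SE 0.197, edgeR adjusted p = 0.0136, and up to 0.1227 without MM1S Veh replicate 1 or MM1S TAK-981 replicate 1). In MM1R it was at 5.25 and 4.87 CPM against 3.60 and 2.32 CPM (−0.78, SE 0.174, edgeR adjusted p = 0.001), which held whichever library was left out. The host SNHG1 fell in both lines, from 159 and 150 CPM to 102 and 107 CPM in MM1S (−0.57, SE 0.0593, edgeR adjusted p = 2.687e-07), and from 191 and 194 CPM to 126 and 128 CPM in MM1R (−0.60, SE 0.0585, edgeR adjusted p = 1.298e-07). The ratio of each snoRNA to SNHG1 was not called in either line.

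**Figure D3:**
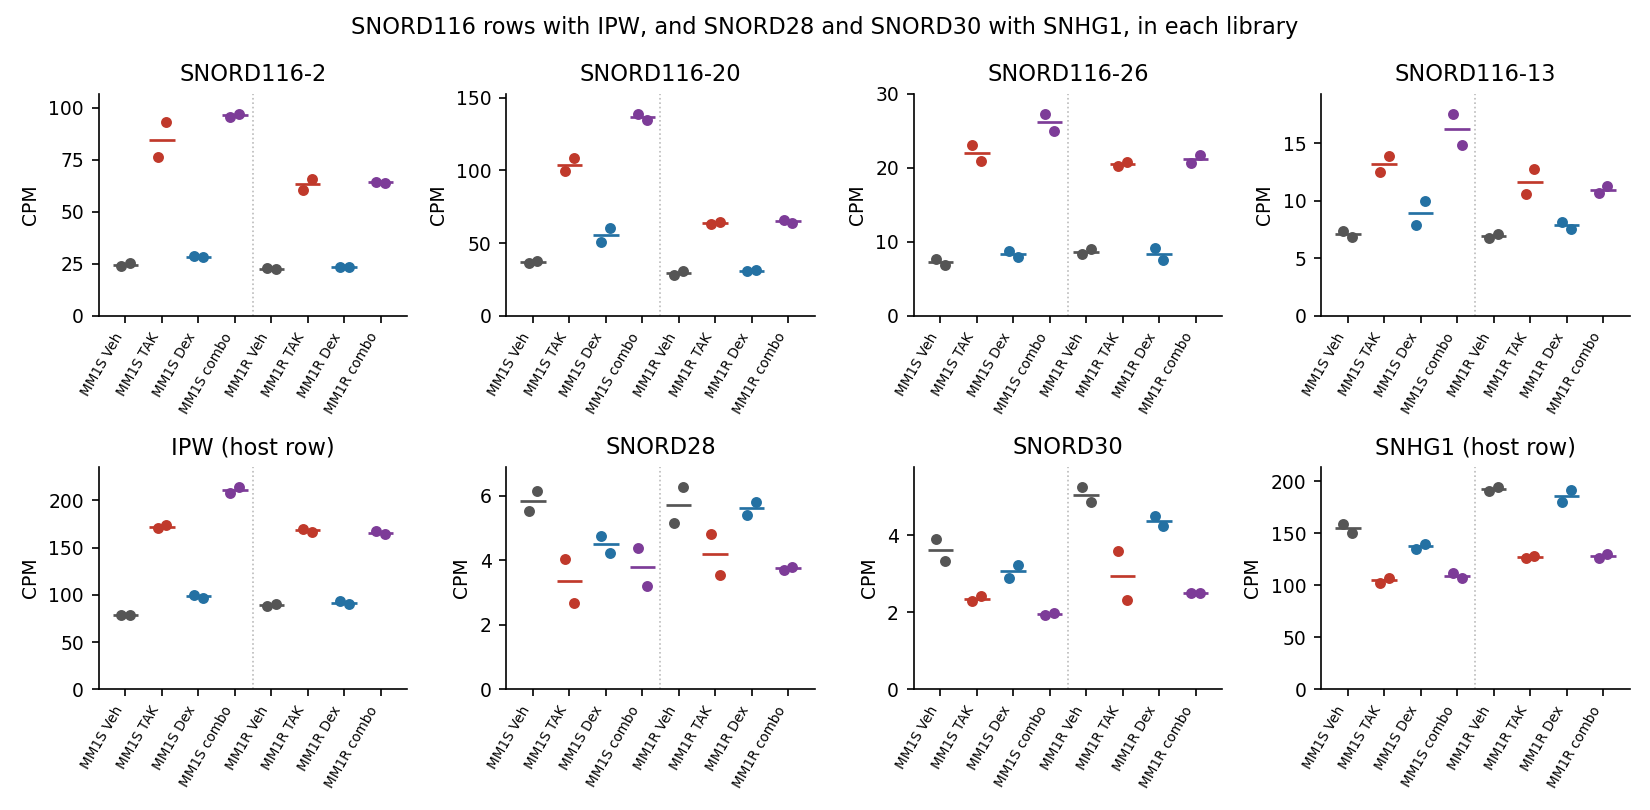
Level of 4 SNORD116 genes with IPW, and of SNORD28 and SNORD30 with their host SNHG1, in each of the 16 libraries, in CPM on linear axes that start at 0. Points are libraries and bars the mean of 2; SNORD116-2 lies at 76.2 and 93.2 CPM with TAK-981 in MM1S against 23.9 and 25.2 with Veh, and SNORD30 lies at 2.28 and 2.42 against 3.90 and 3.33.

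Of the 7 other SNORD members lowered by TAK-981, 5 lay in noncoding hosts. In MM1S they were SNORD60 (−0.54, edgeR adjusted p = 0.007249), SNORD50B in SNHG5 (−0.59, edgeR adjusted p = 0.01273), SNORD87 in SNHG6 (−0.76, edgeR adjusted p = 0.01336) and SNORD49B, which had 9 and 5 counts with Veh and 0 and 3 with TAK-981. In MM1R they were SNORD36B in RPL7A (−0.89, edgeR adjusted p = 0.0161), SNORD65 in LRRC75A-AS1 (−0.88, edgeR adjusted p = 0.03659) and SNORD44 in GAS5 (−0.30, edgeR adjusted p = 0.0442). For SNORD50B and SNORD87 the call was lost without MM1S Veh replicate 1 or MM1S TAK-981 replicate 2 (edgeR adjusted p of up to 0.1637 and 0.08864), for SNORD60 without MM1S TAK-981 replicate 1 (0.05032), for SNORD36B without MM1R Veh replicate 2 or MM1R TAK-981 replicate 1 (up to 0.1169), and for SNORD65 without MM1R Veh replicate 1 or MM1R TAK-981 replicate 1 (up to 0.441). SNORD44 lost it on leaving out any of 8 libraries (up to 0.2271). SNORD17, a guide of the large subunit ribosomal RNA, lay the other way: it was at 114 and 141 CPM with Veh and 165 and 197 CPM with TAK-981 in MM1S (0.50, SE 0.135, edgeR adjusted p = 0.006441, and up to 0.126 without MM1S Veh replicate 1 or MM1S TAK-981 replicate 2). SNORD2 and SNORD81, both high per kilobase, were not called in any comparison.

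Class went with the length of the counted gene. For 12 members that length was over 1.5 times that of the GENCODE sequence, as for SNORD116-2 (2954 bp against 95) and SNORA8 (1984 against 139). Such members, the SNORD116 genes among them, are kept in the counts by length that follow. Of 21 tested members longer than 200 bp, 14 were higher with TAK-981 in MM1S and 0 lower, of 81 members over 100 and up to 200 bp 18 were higher and 0 lower, and of 90 members of at most 100 bp 6 were higher and 6 lower. The medians were 0.63, 0.39 and −0.07. Over the 182 members other than SNORD116, Spearman's rho between length and log2 fold change was 0.465 in MM1S and 0.315 in MM1R. Within the classes it lay between −0.084 and 0.23 in MM1S, and the classes of MM1R gave 0.051 to 0.289. Genes here share libraries and are not independent replicates. Length and class cannot be told apart over all members, and the part of length in these differences was not tested further. By host, 5 of 42 members in ribosomal protein genes were higher with TAK-981 in MM1S and 0 lower (median 0.10), 4 of 32 in noncoding hosts other than that of SNORD116 were higher and 5 lower (0.07), and 20 of 100 in other genes were higher and 0 lower (0.23).

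With Dex, the lines gave different counts. In MM1S, 15 members were higher and 1 lower than with Veh, against 20.8% and 21.5% of all genes. They were 6 of 18 SCARNA, 5 of 68 SNORA and 4 of 106 SNORD members. In MM1R 0 members were called by edgeR, with 7 at an unadjusted p under 0.05, and 0 by DESeq2, and the share of all genes called was 0 in each direction as well. The count in MM1S was 9 without MM1S Veh replicate 1 or MM1S Dex replicate 2, and 27 without MM1S Dex replicate 1, and that Dex pair differed most of all pairs. Whether the Dex effect on the members differed between the lines was not tested.

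SCARNA9 was at 110 and 127 CPM with Dex in MM1S against 82.3 and 88.1 CPM with Veh (0.48, SE 0.074, edgeR adjusted p = 4.079e-05), and at 56.9 and 54.3 CPM against 62.4 and 57.8 CPM in MM1R (−0.11). SNORD116-20 was at 50.7 and 60.4 CPM against 36.5 and 37.7 CPM in MM1S (0.58, SE 0.0799, edgeR adjusted p = 1.029e-05), and at 30.55 and 31.3 CPM against 28.3 and 30.5 CPM in MM1R (0.07). SNORD79, in GAS5, was at 7.93 and 7.31 CPM against 5.45 and 5.28 CPM in MM1S (0.50, SE 0.132, edgeR adjusted p = 0.004683). In these 3 genes both Dex libraries of MM1S lay above both Veh libraries, and the calls held whichever library was left out. SCARNA7 (0.60, edgeR adjusted p = 0.003597) was at 0.05401 without MM1S Dex replicate 2. SCARNA10 was called at 0.32 (edgeR adjusted p = 0.03263) although its groups overlapped, with 431 and 564 CPM against 358 and 440 CPM, and its p rose to as much as 0.4824 on leaving out 1 library (lost without MM1S Veh replicate 1, either MM1S TAK-981 library or MM1S Dex replicate 2). This call was also lost with the replicate number as a block. SNORD45B was the member called lower (−0.64, edgeR adjusted p = 0.04837), a call lost on leaving out any of 11 libraries.

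With combo, 48 members were higher and 5 lower in MM1S (30.8% and 29.5% of all genes), and 24 higher and 4 lower in MM1R (24.8% and 26.7%). These comparisons use the same Veh libraries as those of TAK-981 alone, so the values are given side by side. SCARNA9 was at 182 and 175 CPM with combo in MM1S, above both the TAK-981 (126 and 138) and the Dex libraries (110 and 127), and its log2 fold change against Veh was 1.07 (SE 0.0739). Under combo, MM1R had 83.6 and 78.3 CPM, overlapping TAK-981 alone at 86.8 and 82.1. SNORD116-20 followed the same order in MM1S, with 139 and 135 CPM under combo (1.88, SE 0.0782), and was at 66.0 and 64.2 CPM in MM1R (1.15, SE 0.0794). SNORA26, in DANCR and named after its values were seen, was at 3.81 and 2.77 CPM with Veh, 5.14 and 6.43 with TAK-981, 5.08 and 4.89 with Dex, and 9.79 and 9.24 with combo in MM1S, where its log2 fold change with combo was 1.52 (SE 0.184, edgeR adjusted p = 9.436e-07). SNORD28 and SNORD30 were lower with combo in both lines, with values of −0.63 and −0.89 for MM1S, and of −0.60 and −1.02 for MM1R. The combo count in MM1S was 32 without MM1S Veh replicate 1, and that in MM1R was 13 to 17 without any 1 of the 4 libraries compared.

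Between the lines with Veh, more members were called lower in MM1R than higher. There 32 of 192 (16.7%) were lower and 2 (1.04%) higher than in MM1S, while of all genes 22.6% were lower and 25.6% higher, so that both shares were smaller than those of genes in general. The 32 were 9 of 18 SCARNA (median −0.57), 12 of 68 SNORA (median −0.25) and 11 of 106 SNORD members (median −0.10), against a median of 0.0068 over all genes. The count of 34 called was 19 without MM1S Veh replicate 2, 21 without MM1R Veh replicate 1 and 15 without MM1R Veh replicate 2.

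SCARNA21 showed the largest difference of any member. It had 45 and 33 counts in the MM1S libraries with Veh (2.11 and 1.69 CPM) and 5 and 7 counts in those of MM1R (0.207 and 0.289 CPM), a log2 fold change of −2.92 (SE 0.407, edgeR adjusted p = 1.34e-05). In all 8 MM1R libraries it had 2 to 9 counts, and in all 8 MM1S libraries 33 to 54. Its host CHD3, a chromatin remodelling helicase, differed by the same size, from 27.3 and 29.2 CPM in MM1S to 3.804 and 3.75 CPM in MM1R (−2.90, SE 0.118, edgeR adjusted p = 1.322e-12). SCARNA5, within ATG16L1, was at 29.5 and 33.4 CPM in MM1S against 16.8 and 15.7 CPM for MM1R (−0.95, SE 0.165, edgeR adjusted p = 0.0002305). SCARNA10 (−0.625, edgeR adjusted p = 0.0003296) and SCARNA9 (−0.50, edgeR adjusted p = 2.908e-05) were lower too, and all 4 calls held whichever library was left out. SNORD17 (−0.65, edgeR adjusted p = 0.001277) and SNORA54 (−0.59, edgeR adjusted p = 0.002404) behaved likewise. The 2 members higher in MM1R were SNORA24, in SNHG8, with 20.1 and 20.7 against 14.9 and 14.4 CPM (0.47, edgeR adjusted p = 0.02137), and SNORD30 (0.48, edgeR adjusted p = 0.02318). The call of SNORA24 was lost without any 1 of the 4 libraries compared (up to 0.104), and that of SNORD30 without MM1S Veh replicate 2 or either MM1R Veh library (up to 0.1709).

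A host was taken as the shortest gene on the same strand that wholly holds the member and spans at most 2500000 bp. The limit on the span was no part of the design first written and was set after the spans were seen, because some symbols with distant copies span much of a chromosome. Without it the counts of members called were 16 and 14 with TAK-981 in MM1S and MM1R, 5 and 0 with Dex, and 14 between the lines. Of the 192 tested members, 181 had a tested host, in 113 hosts, and the log2 ratio of member to host was tested with limma over all 578 pairs of a gene nested in another. With TAK-981 in MM1S the ratio was higher for 16 of 181 members and lower for 0, against 6.23% and 3.81% of all nested pairs. These were 5 of 15 SCARNA, 8 of 67 SNORA and 3 of 99 SNORD pairs, and the median ratio change was 0.79, 0.36 and 0.02 log2. The MM1R ratio was higher for 10 of 181 members and lower for 0, against 9.52% and 5.88%, with 4 SCARNA, 6 SNORA and 0 SNORD pairs. In MM1R the share of higher ratios was thus smaller among the members than over all nested pairs. Of the 113 hosts, 14 were higher and 44 lower with TAK-981 in MM1S, where 25.2% of all genes were higher and 23.7% lower. In MM1R 10 hosts were higher and 52 lower, against 25.8% and 27.6% of all genes. Of the 33 members with a tested host that were themselves called higher in MM1S, 9 had a host that was lower, 9 a host that was higher and 15 a host that was not called. Among the members not called, the host was lower for 51, higher for 19 and not called for 73. The share with a higher host was thus larger, and that with a lower host smaller, among the members called higher. The counts of 16 and 10 ratios fell to 7 without MM1S Veh replicate 1, to 8 without MM1S TAK-981 replicate 2, and to 4 without any of the 4 MM1R libraries compared.

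SCARNA10 and NCAPD2, a condensin subunit, gave the smallest p of the member pairs. Its host fell from 277 and 276 CPM to 139 and 161 CPM with TAK-981 in MM1S, while SCARNA10 rose, so that the log2 ratio went from 0.37 and 0.67 to 2.23 and 2.04 (difference 1.62, SE 0.147, limma adjusted p = 3.393e-06). In MM1R the ratio went from −0.29 and −0.38 to 0.58 and 0.60 (0.93, SE 0.147, limma adjusted p = 0.0009277). SCARNA9 and CEP295, a centrosomal protein gene, went from −0.88 and −0.66 to 0.17 and 0.59 in MM1S (1.15, SE 0.152, limma adjusted p = 0.0001418), and the ratio in MM1R rose by 0.60 (limma adjusted p = 0.01716), a call lost without any 1 of the 4 libraries compared (up to 0.1101). SCARNA12 and PHB2, a mitochondrial prohibitin gene, differed by 0.81 in MM1S (limma adjusted p = 0.001035) and by 0.73 in MM1R (limma adjusted p = 0.002381). SCARNA22, also named ACA11, lies in NSD2, a histone methyltransferase gene that a recurrent myeloma translocation places under the immunoglobulin heavy chain locus. NSD2 fell from 370 and 386 CPM to 216 and 243 CPM with TAK-981 in MM1S, and the ratio rose by 1.14 (SE 0.201, limma adjusted p = 0.001717). In MM1R NSD2 fell as well, from 393 and 392.4 CPM to 258 and 267 CPM, but SCARNA22 was at 4.96 and 4.12 CPM with Veh and 3.275 and 3.89 CPM with TAK-981, and the ratio changed by 0.25 (limma adjusted p = 0.4272). SCARNA22 itself was called in MM1S at 0.43 (edgeR adjusted p = 0.03813), which was lost without either MM1S Veh library or MM1S TAK-981 replicate 2 (up to 0.2196).

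Among SNORA pairs, SNORA54 and NAP1L4 differed by 0.92 in MM1S (limma adjusted p = 0.002193) and by 0.73 in MM1R (limma adjusted p = 0.009976, and up to 0.1101 without MM1R Veh replicate 2 or MM1R TAK-981 replicate 1). SNORA3B and RPL27A differed by 0.71 in MM1S (limma adjusted p = 0.01056, and up to 0.07428 without either MM1S Veh library or MM1S TAK-981 replicate 2) and by 0.88 in MM1R (limma adjusted p = 0.00293). RPL27A itself was not called in either line (0.02 and −0.10), so that here the small RNA moved and its host did not pass the test. Reads of an intron that hold the member cannot be told apart from the mature small RNA in these counts, and the part of intron reads in the ratios was not tested.

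**Figure D4:**
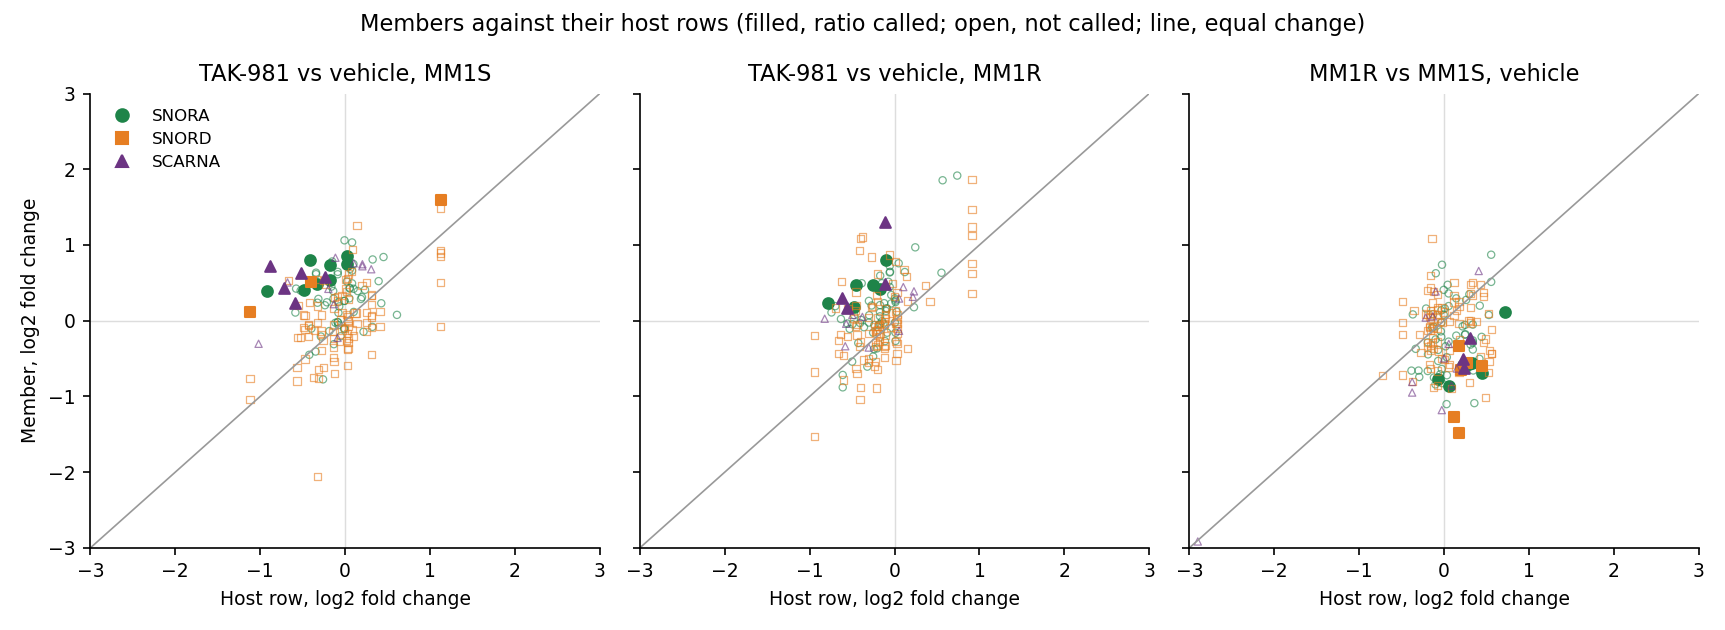
Log2 fold change of each member (vertical) against that of its host (horizontal) for 181 pairs, with TAK-981 in MM1S, with TAK-981 in MM1R and for MM1R against MM1S with Veh. Filled symbols are pairs whose ratio passed a limma adjusted p of 0.05 (16, 10 and 16 pairs) and the diagonal is equal change; with TAK-981 the filled symbols lie above the diagonal and between the lines below it.

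With Dex in MM1S the ratio was higher for 5 of 181 members, all SCARNA, and lower for 1 (2.08% and 3.29% of all nested pairs). SCARNA9 and CEP295 rose by 0.98 (limma adjusted p = 0.0009267) and SCARNA10 and NCAPD2 by 0.92 (limma adjusted p = 0.001075). The lower pair was SNORA57 in METTL12, a methyltransferase gene that rose from 2.40 and 1.74 CPM to 4.87 and 6.001 CPM, while SNORA57 had a value of 0.31 (edgeR adjusted p = 0.2543). In MM1R the ratio was called for 0 members with Dex, with 4 at an unadjusted p under 0.05 in limma, and for 0 of all pairs in each direction. Without 1 of 3 libraries (MM1S Veh replicate 1 or 2, or MM1S Dex replicate 2) the 6 calls in MM1S fell to 2 or 3.

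Between the lines with Veh, the ratio was lower in MM1R for 16 of 181 members and higher for 0. Of all nested pairs 3.46% were higher and 8.13% lower. Of the 113 hosts 39 were higher and 18 lower in MM1R, against 25.6% and 22.6% of all genes. The difference in ratio was −0.857 for SCARNA10 and NCAPD2 (limma adjusted p = 0.00249), which held whichever library was left out. It was −0.81 for SNORA54 and NAP1L4 (limma adjusted p = 0.006387, and up to 0.1016 without MM1S Veh replicate 2 or MM1R Veh replicate 2). For SCARNA21 and CHD3, which were both low in MM1R, it was 0.33 (limma adjusted p = 0.6002). Without 1 of the 4 libraries the 16 calls fell to 7 (without either replicate 1) or to 1 (without either replicate 2).

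**Figure D5:**
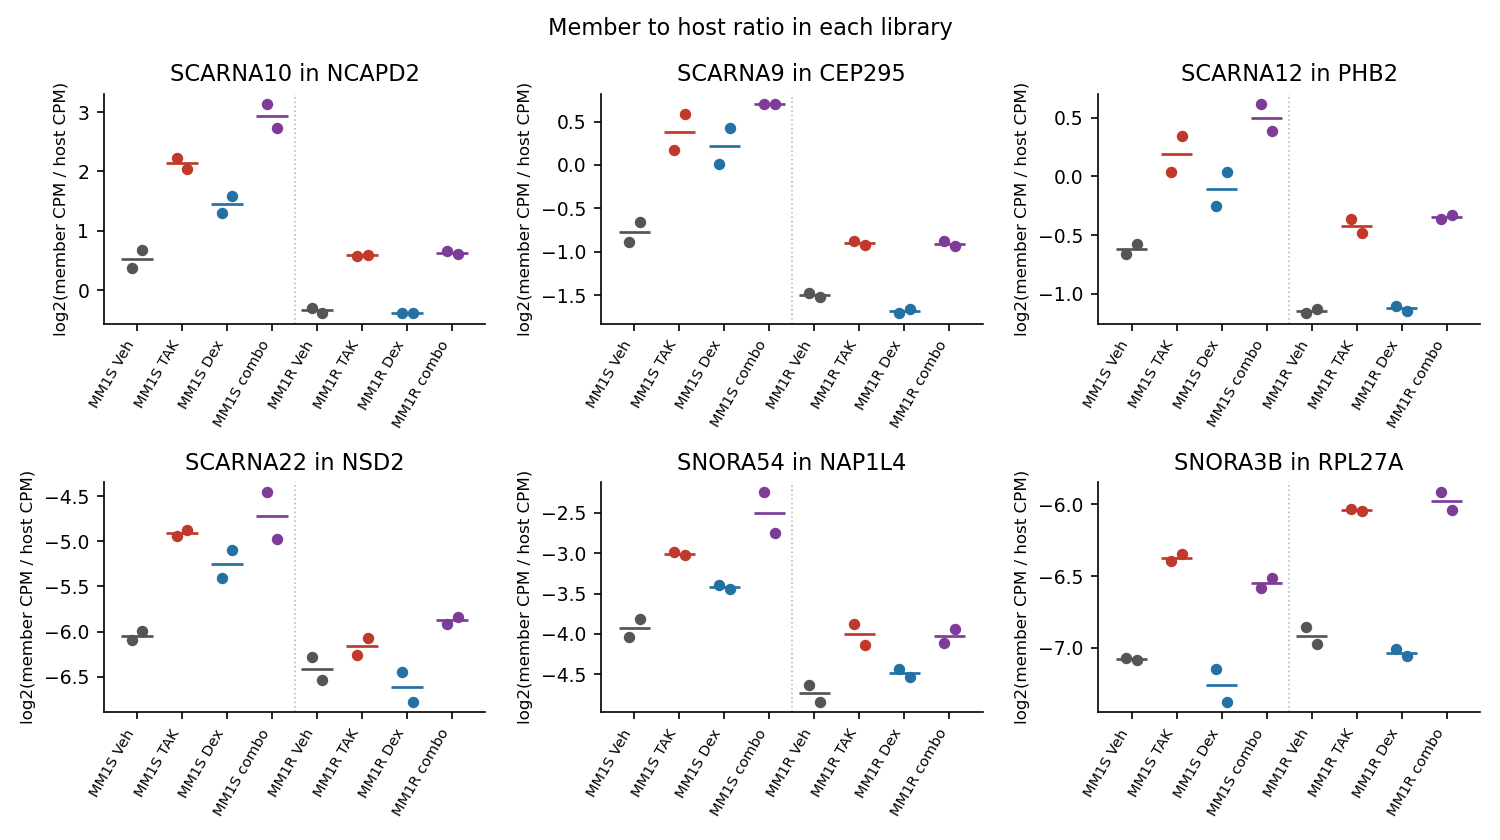
Log2 ratio of member to host CPM in each of the 16 libraries for 6 pairs; points are libraries and bars the mean of 2, and the vertical axes differ and do not start at 0. For SCARNA10 and NCAPD2 the ratio is 2.23 and 2.04 with TAK-981 in MM1S against 0.37 and 0.67 with Veh.

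Hosts that hold several members showed whether neighbours moved together. GAS5, a noncoding host of 7 tested members, rose with TAK-981 in MM1S (0.31, SE 0.0599, edgeR adjusted p = 0.0002692), while 0 of the 7 were called and they ran from −0.45 to 0.34. In IPW the 7 members ran from −0.08 to 1.60, with 4 called higher. Each of RPL13A, RPL7A, SNHG17 and TAF1D held 4 tested members, of which 0 or 1 were called higher and 0 lower with TAK-981 in MM1S. Over all pairs of a class with TAK-981 in MM1S, Pearson's r between the log2 fold changes of member and host was 0.14 for SNORA (n = 67), 0.523 for SNORD (n = 99) and 0.406 for SCARNA pairs (n = 15). In MM1R the same values were 0.63, 0.565 and 0.39, so that the order of the classes was not the same in both lines. These are descriptions, since members share hosts and libraries.

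Genes of the proteins that bind and make these RNAs were often lower with TAK-981. The 4 box C/D core proteins fell with TAK-981 in both lines: FBL, the methyltransferase fibrillarin, with log2 fold changes of −0.66 in MM1S and −0.77 in MM1R, NOP56 with −0.52 and −0.56, NOP58 with −0.47 and −0.455, and SNU13 with −0.44 and −0.58. Of the 4 box H/ACA core proteins 3 fell, DKC1 (dyskerin, the pseudouridine synthase) with −0.50 and −0.61, GAR1 with −0.41 and −0.60, and NHP2 with −0.62 in both, while NOP10 was not called (0.05 and −0.145). Of 37 tested genes in the lists of core, assembly, Cajal body and trimming proteins, 21 were lower and 1 higher in MM1S, where 23.7% of all genes were lower and 25.2% higher, and 24 were lower and 1 higher in MM1R, where these shares were 27.6% and 25.8%. With Dex in MM1S 0 of the 8 core genes were called. Between the lines with Veh, all 8 core genes were higher in MM1R, against 25.6% of all genes, from 0.26 (SNU13) to 0.55 (NOP58 and DKC1), while the SCARNA median was −0.57. The call of FBL between the lines was lost on leaving out any of 12 libraries (edgeR adjusted p of up to 0.2125), that of GAR1 without MM1S Veh replicate 1 or either MM1R Veh library (up to 0.2799), and that of SNU13 without MM1S Veh replicate 2 (0.06045). The call of GAR1 with TAK-981 in MM1S was lost without MM1S Veh replicate 2 (0.06312).

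Of the RNAs looked for that act in pre-rRNA cleavage rather than modification, none was a member. SNORD22 was listed at 0 in every library. U3, U8, U13, U14 and U17 were not analysed further, so nothing is said here of their level.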

How the data were processed

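Total RNA of MM1S and MM1R cells (miRNeasy extraction, ribosomal RNA depleted) was sequenced in 16 libraries of 8 groups. The authors deposited raw read counts per gene with a gene length, made, per the submitters' processing notes, with bcl2fastq 2.18.0.12, STAR 2.6.0, HTSeq 0.6.0 and the hg19 build, where edgeR 3.28.1 is listed as well. The annotation, strand and multi-mapping settings are not given in the sources used here. Depth was 15707587 to 24796539 counts per library, which leaves most members with low counts and large errors. Groups were taken from the labels.

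Counts were tested in R 4.3.3 with edgeR 4.0.16 (filterByExpr, TMM, robust quasi-likelihood fit, 1 term per group, all 16 libraries, 8 residual degrees of freedom), with Benjamini-Hochberg adjustment over 14215 genes and a threshold of 0.05. A host was the shortest gene, of at most 2500000 bp, that wholly holds a member on its strand. The log2 CPM ratio of member to host (prior count 2) was tested with limma 3.58.1 over 578 nested pairs. The span limit departs from the design first written and was set after the data were seen: 26 members lie within symbols whose distant copies give longer spans, and these were left out as hosts. Sequences were read from GENCODE 29 with Python 3.11.15 and compared with Biopython 1.88, and plots were drawn with matplotlib 3.10.9. Both tests were run on simulated data first.

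Members named are the 4 highest per kilobase in each class, the up to 4 higher and 4 lower members of smallest p per comparison whose groups do not overlap, the up to 4 ratios of smallest p with TAK-981, the core proteins, and hosts with 4 or more members, of which 1 is not reported here. Others are named where a count is small or beside a copy or host, after their values were seen. The members and lists were chosen with earlier results of these data known. Alternatives were RLE factors, library size alone, no filter on low counts, DESeq2 1.42.0, a replicate block, only the groups compared, a minimum fold change, another prior count, another host and leaving out each library in turn, where the lone library of a group is assumed to vary like the other groups.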

Additional observations from a re-analysis of the deposited data

How the results depend on the processing

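Of 429 values recomputed for named genes and ratios, 207 were called. Over 4525 recomputations of those calls 308 lost the call, 249 of them on leaving out 1 library, and 0 changed sign, while uncalled values gained a call 120 times. With a log2 fold change of at least 1 also required, 8 members stayed called with TAK-981 in MM1S, 12 in MM1R, 2 with Dex in MM1S, 15 with combo in MM1S, 12 with combo in MM1R and 4 between the lines. DESeq2 called 28 and 13 members with TAK-981 in MM1S and MM1R, 8 with Dex in MM1S and 15 with combo in MM1R. A fit of only the groups compared called 46 with combo in MM1R. The interaction was called for 13 members with no filter on low counts. The cause of these differences was not tested, apart from the fold threshold, which only removes calls. Leaving out 1 library gave 18 to 53 members with TAK-981 in MM1S and 16 to 36 in MM1R, 9 to 27 with Dex in MM1S and 0 in MM1R, 32 to 56 and 13 to 34 with combo, 15 to 39 between the lines and 0 to 10 for the interaction. For the ratios it gave 7 to 22 and 4 to 11 with TAK-981, 2 to 6 and 0 with Dex, and 1 to 20 between the lines. Same-numbered libraries deviated together in 12 of 12 pairs of groups (r 0.181 to 0.779), but the labels do not say that a number marks a batch and a comparison has only 2 numbers. With the replicate block, 47 and 36 members were called with TAK-981, 20 and 0 with Dex, 56 and 32 with combo, 39 between the lines and 4 for the interaction, and 21, 13, 6, 0 and 20 ratios. Of the named calls, the block ended those of SCARNA10 with TAK-981 and combo in MM1R and with Dex in MM1S, of SCARNA12 with Dex in MM1S, of SCARNA7 with combo in MM1R and of SNORD116-18 with TAK-981 in MM1S. With no limit on the host span, which is the design as first written (the limit, and this comparison, were chosen after seeing the data), 16, 14, 5, 0 and 14 ratios were called. The low counts of most members limit what could be called, since their median SE was 0.287 against 0.104 over all genes.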

Other observations

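Other small noncoding RNAs from genes of their own, listed beside the members, were tested in 7 of 15 cases, and with TAK-981 in MM1S 4 of them were higher and 0 lower. RPPH1, the RNA of ribonuclease P, was at 6305 and 7678 CPM with Veh and at 10514 and 9601 CPM with TAK-981 in MM1S (log2 fold change 0.52, edgeR adjusted p = 0.0001768). In MM1R it was at 5586 and 5685 CPM against 6532 and 6906 CPM (0.25, edgeR adjusted p = 0.02916), a call lost without any 1 of the 4 libraries compared (up to 0.159). TERC, the telomerase RNA, which carries an H/ACA domain, was at 242 and 265 CPM against 351 and 305 CPM in MM1S (0.37, edgeR adjusted p = 0.002956, and 0.05185 without MM1S Veh replicate 1). RMRP, the RNA of the related ribonuclease MRP, was at 2072 and 2438 CPM against 2532 and 3050 CPM (0.31, edgeR adjusted p = 0.03741), and RNU12, of the minor spliceosome, at 22.8 and 29.3 CPM against 32.1 and 43.3 CPM (0.54, edgeR adjusted p = 0.023). The calls of these last 2 were lost without MM1S Veh replicate 1 or MM1S TAK-981 replicate 2 (up to 0.3215 and 0.2812). TERC (0.18), RMRP (−0.03) and RNU12 (0.34) were not called in MM1R. Between the lines with Veh, RNU12, RPPH1 and TERC were lower in MM1R, calls lost without MM1S Veh replicate 2 and, for RPPH1, also without MM1R Veh replicate 1 (edgeR adjusted p of up to 0.05093, 0.2139 and 0.07729).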
